A study of Homo sapiens with 12 samples.

Results

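The ZNF genes are the human zinc finger genes whose symbol is ZNF followed by a number. They were taken from the rows of the expression table that carried 1 gene symbol, with 1 row per gene (the row of the highest mean), and selected on their level, a log2 mean of at least 5 over the 12 arrays. Of 433 ZNF genes measured, 140 met this level (32.3%), against 26.0% of all 22395 genes, and these 140 are described here among 5820 genes tested. The level chose the members, so it is given as a description only. The last genes outside the level were ZNF135 at a mean of 4.996, ZNF275 at 4.96 and ZNF277 at 4.96, and the first inside were ZNF726 at 5.02, ZNF79 at 5.03 and ZNF649 at 5.04. A further 44 rows shared by several ZNF genes, and 10 tested genes whose symbol adds a letter to the number, were not members.

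NCI-H1975 is a human lung adenocarcinoma line whose EGFR carries the activating L858R and the resistance T790M changes. All arrays came from this 1 line, and Affymetrix Human Gene 2.1 ST arrays read their total RNA. There was 1 untreated array, which had no time label, 4 for erlotinib at 1 µM, taken after 6, 12, 24 and 48 h, 3 for quinacrine at 3 µM, taken after 6, 12 and 24 h, and 4 for the combination of both at these doses, taken at the same 4 times as erlotinib. Erlotinib inhibits the EGFR kinase and quinacrine is an acridine antimalarial that binds DNA. A condition at a given time was read by 1 array, so n counts arrays of different times, SDs hold the change with time, and p-values measure the spread between these arrays only. No label gives separate cultures.

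Most ZNF genes encode proteins with arrays of C2H2 zinc fingers, each finger reading a few bases of DNA. In the largest class a KRAB domain recruits TRIM28 (KAP1), which brings the histone methyltransferase SETDB1 and other repressors, and many of these proteins silence transposable elements. The genes arose by repeated duplication and lie in clusters, above all on chromosome 19. Many of their transcripts are short-lived, so their levels can follow a change of transcription quickly. Some symbols of the series name proteins of other kinds, such as ZNF598, an E3 ligase of ribosome quality control, ZNF622, which acts in the maturation of the large ribosomal subunit, and ZNF185, an actin-associated LIM protein.

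By the RefSeq gene table of GRCh38.p14, 90 of the 140 members lay on chromosome 19. RefSeq promoter windows of that build, from 250 bases before to 50 bases after a gene's start, were found for 123 members. In that table chromosome 19 held 79 of the 123 (64.2%), against 7.41% of 4682 other tested genes. Gene starts no more than 500000 bases apart placed members in neighbourhoods, and the 3 largest held 24, 22 and 16 members. The largest runs from ZNF649 to ZNF331, and its values in the combination and in erlotinib are given below.

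The windows of ZNF83, ZNF611 and ZNF468, members of this neighbourhood on the minus strand that were higher in the combination than in erlotinib alone, are shown because their letters are alike, and ZNF808 is the member whose window is closest to that of ZNF611. ZNF692, the one member lower in that comparison, lies on chromosome 1 and is shown for contrast. The windows are chr19:52690447-52690746, minus strand, for ZNF83; chr19:52734995-52735294, minus strand, for ZNF611; chr19:52857570-52857869, minus strand, for ZNF468; chr19:52527418-52527717, plus strand, for ZNF808; and chr1:248859036-248859335, minus strand, for ZNF692. They are written 5′ to 3′ along the gene, and capitals mark GGGCGG (the GC box) and CCAAT on either strand.
ZNF83: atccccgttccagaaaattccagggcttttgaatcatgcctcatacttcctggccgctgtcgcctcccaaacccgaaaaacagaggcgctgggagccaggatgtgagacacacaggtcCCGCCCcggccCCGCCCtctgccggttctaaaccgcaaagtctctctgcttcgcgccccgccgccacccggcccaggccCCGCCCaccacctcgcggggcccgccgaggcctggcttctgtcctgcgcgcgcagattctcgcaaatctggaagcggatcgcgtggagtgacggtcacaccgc
ZNF611: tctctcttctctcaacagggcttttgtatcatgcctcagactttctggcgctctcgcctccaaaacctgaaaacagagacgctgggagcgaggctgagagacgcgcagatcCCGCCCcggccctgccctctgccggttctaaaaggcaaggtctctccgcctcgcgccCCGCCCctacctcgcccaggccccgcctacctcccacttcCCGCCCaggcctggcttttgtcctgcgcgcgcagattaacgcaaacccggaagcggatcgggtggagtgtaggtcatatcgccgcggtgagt
ZNF468: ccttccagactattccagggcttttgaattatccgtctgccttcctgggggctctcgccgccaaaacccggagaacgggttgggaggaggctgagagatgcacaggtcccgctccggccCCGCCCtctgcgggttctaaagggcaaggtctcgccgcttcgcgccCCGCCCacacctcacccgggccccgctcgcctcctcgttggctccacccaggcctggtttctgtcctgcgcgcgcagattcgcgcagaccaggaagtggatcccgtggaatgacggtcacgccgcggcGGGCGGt
ZNF808: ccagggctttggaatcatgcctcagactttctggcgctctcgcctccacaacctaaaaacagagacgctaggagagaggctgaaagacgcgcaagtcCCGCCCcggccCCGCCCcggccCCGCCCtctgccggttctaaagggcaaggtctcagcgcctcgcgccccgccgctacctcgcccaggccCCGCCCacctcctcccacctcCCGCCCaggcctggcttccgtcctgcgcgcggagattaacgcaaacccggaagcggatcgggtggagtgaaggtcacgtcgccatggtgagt
ZNF692: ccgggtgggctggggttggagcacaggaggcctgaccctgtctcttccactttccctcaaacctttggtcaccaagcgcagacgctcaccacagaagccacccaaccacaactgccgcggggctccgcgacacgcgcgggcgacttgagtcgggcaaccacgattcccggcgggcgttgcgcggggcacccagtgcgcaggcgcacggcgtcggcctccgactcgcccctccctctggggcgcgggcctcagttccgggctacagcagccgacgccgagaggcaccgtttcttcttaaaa

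The best local alignment of the ZNF611 and ZNF83 windows covered 275 base pairs at 85.8% identity, that of ZNF611 and ZNF468 covered 272 at 83.5%, and that of ZNF468 and ZNF83 covered 288 at 81.9%. ZNF692 aligned with ZNF611 over 25 bases only. Of the other 122 members with a window, 7 aligned with ZNF611 over at least 150 bases, at 81.8% to 91.6% identity, and all lay in the same neighbourhood: ZNF845, ZNF808, ZNF761, ZNF83, ZNF468, ZNF525 and ZNF347. GGGCGG or its complement occurred in 90 of the 123 member windows (73.2%), close to the 73.8% of 4805 windows of tested genes and above the 44.6% of all 27305 windows. CCAAT occurred in 49.6% of member windows, 38.1% of tested and 35.7% of all. The ETS-type core CCGGAAG stood in 62 member windows (50.4%), against 22.5% of tested and 10.7% of all, and TATAAA in 4 (3.25%), against 5.12% and 12.0%. Both strands were searched, no motif searched contains another, and a match describes the letters only. Windows of duplicated genes share descent, so these shares do not count independent genes.

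The arrays differed in ways that bear on every value. The median over the tested genes was 6.18 on the combination 6 h array and 6.39 to 6.56 on the others, and the interquartile range over all rows was smallest on the combination 6 h (2.04) and erlotinib 12 h (2.26) arrays, against 2.38 to 2.88 elsewhere. Each array was therefore centred on its median over the tested genes, and levels below are log2 levels after this step, so that 0 is the array's median gene. Results that rest on those arrays are given with and without them. Of 7 epithelial markers 5 passed the level, among them CDH1 at a mean of 10.31, EPCAM at 8.54 and KRT19 at 8.29, while the lung marker NKX2-1 was at 6.12 and KRT8 at 2.81. No marker of blood cells, fibroblasts or endothelium exceeded 2.76.

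The ZNF genes moved more from array to array than other genes. The range of a member over the 12 centred arrays had a median of 0.91 (quartiles 0.66 and 1.17), against 0.70 (0.53 and 0.95) for the 5680 other tested genes. A range of at least 1, or a doubling, was reached by 56 members (40.0%), by 21.7% of the others and by 22.1% of all tested genes. Without the erlotinib 12 h and combination 6 h arrays the medians were 0.71 and 0.60, and a range of at least 1 remained in 22.1% of members (31) against 13.8% of the others. These are descriptions of single arrays and carry no test.

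Signal strength moves with this range. The members' mean levels had a median of 5.91, below the 6.47 of the other genes, and low rows vary more. Between levels of 5 and 5.5 the median range was 0.97 for 43 members and 0.87 for 994 other genes. Between 6 and 6.5 it was 1.00 for 28 members against 0.72 for 911 others, and between 6.5 and 7 it was 0.83 for 21 against 0.69 for 747. Between 7 and 8 the order turned, with 0.59 for 7 members and 0.63 for 1149 others. From 8 upward it was 0.63 for 7 members and 0.55 for 875 others. Without the erlotinib 12 h and combination 6 h arrays the others had the wider range between 5.5 and 6 (0.64 for 34 members, 0.69 for 1004 others), between 7 and 8 (0.43 and 0.55) and from 8 upward (0.44 and 0.48). The wider range of the members was thus seen in all strata but 1 over the 12 arrays, and in 3 of 6 without these arrays.

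**Figure D1:**
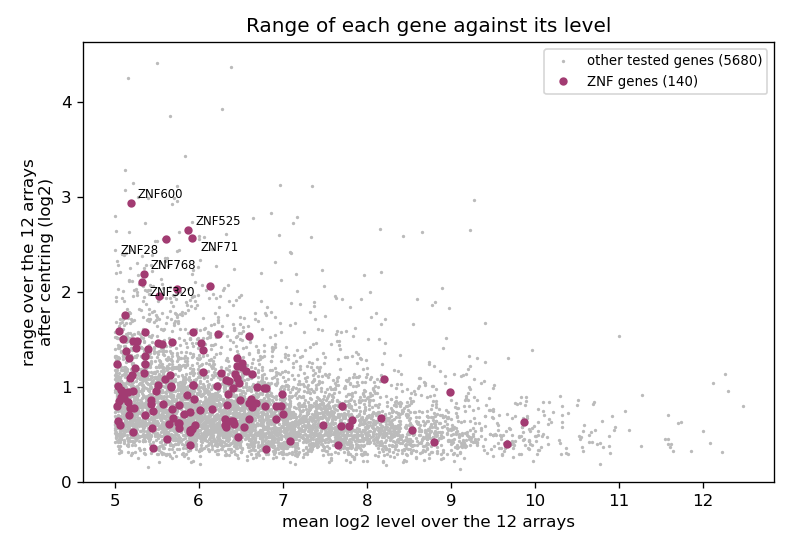
Range over the 12 arrays after centring (log2, y axis) against mean log2 level (x axis), with 1 point per gene: 140 ZNF genes in purple and 5680 other tested genes in grey. The labelled members have the 6 widest ranges, from 2.10 for ZNF320 to 2.93 for ZNF600.

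The spread of the members was unequal between arrays and widest on the combination 6 h array, which also had the lowest median and interquartile range above. The interquartile span of the members' deviations from their own medians was 0.63 on the combination 6 h array, 0.42 on the quinacrine 6 h array and 0.41 on the erlotinib 12 h array. It was 0.20 on the quinacrine 24 h and combination 24 h arrays, 0.24 on the combination 48 h array, 0.21 on the erlotinib 6 h array and 0.29 on the untreated array. For other genes the same spans were 0.40, 0.25 and 0.29 on the first arrays named and 0.20 and 0.18 at 24 h. The quinacrine 12 h array also stood apart, with 0.34 for members and 0.20 for other genes. With quinacrine, alone or combined, the members' span at 24 h was therefore below that at 6 h. With erlotinib alone it was 0.21, 0.41, 0.24 and 0.30 from 6 to 48 h, with no steady direction.

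Few arrays held the extremes. The array farthest from a member's own median was the combination 6 h array for 45 members (32.1%, against 25.2% of other genes), and that or the erlotinib 12 h array for 64 (45.7%, against 36.0%). On the combination 6 h array 12 members lay at least 1 from their median, 10 of them below it, which is 8.57% of members against 2.82% of all tested genes. On the erlotinib 12 h array there were 6, 5 of them below (4.29% against 1.01%). The members' median deviation ran from -0.07 on the erlotinib 48 h array to 0.04 on the combination 48 h array. For the other tested genes it ran from -0.03 on the combination 48 h array to 0.07 on the combination 6 h array. Centring by itself holds such medians near 0, so they cannot show whether treatment moved the typical level. Without centring the members' span, 0.11, was 0.44, and the combination 6 h array was the low one.

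**Figure D2:**
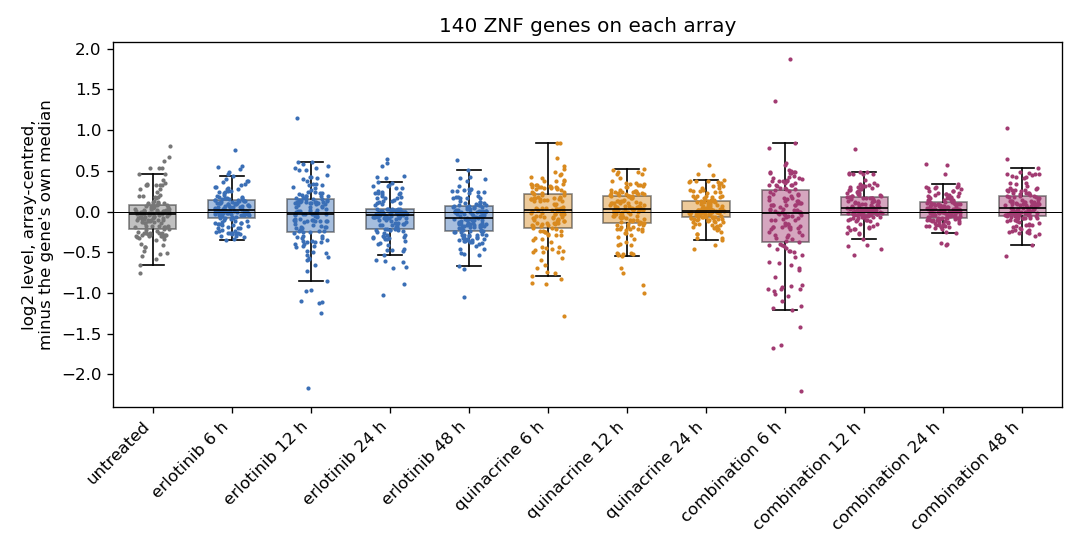
Log2 level of each of the 140 ZNF genes after centring, minus the gene's own median over the arrays (y axis), for each of the 12 arrays (x axis). Points are genes, boxes run between the quartiles with the median as a line, and whiskers reach the last gene within 1.5 box lengths; the box of the combination 6 h array is the tallest at 0.63.

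Single arrays held the extremes of the widest members. ZNF600 was at 0.52 on the combination 6 h array and between -2.41 and -0.82 on the others, and ZNF525 was at 0.88 there but at -1.77 and -1.48 on the quinacrine 6 and 12 h arrays. ZNF71 fell the other way, to -2.61 on the combination 6 h array against -0.61 to -0.04 elsewhere, and ZNF28 was at -2.90 on the erlotinib 12 h array against -0.92 to -0.34 elsewhere. ZNF768 ran from -2.25 to -0.06 and ZNF320 from -2.53 to -0.43. Without the erlotinib 12 h and combination 6 h arrays the range of ZNF71 was 0.57 in place of 2.57 and that of ZNF28 was 0.49 in place of 2.56, while ZNF600, ZNF525, ZNF768 and ZNF320 kept ranges of 1.35 to 1.51. The widest member then was ZNF692, at 1.59.

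The steadiest members varied by less than a doubling on any pair of arrays. ZNF800 had a range of 0.35, ZNF638, which recruits the HUSH silencing complex, of 0.36 and ZNF148, a Krüppel-type factor that binds GC-rich DNA, of 0.39 (0.15 to 0.50, -1.21 to -0.85 and -0.73 to -0.35). Of the 6 rows with the strongest signal, ZNF841 ranged over 0.40, ZNF121 over 0.42, ZNF100 over 0.55, ZNF114 over 0.63, ZNF468 over 0.95 and ZNF480 over 1.08. In ZNF480 the combination 6 h array (0.94) lay below the rest (1.58 to 2.02).

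The comparison of the combination with erlotinib asks what quinacrine adds, over 4 matched times. It gave 8 of 140 members past the threshold of an adjusted p of 0.05, 7 higher and 1 lower, or 5.71% against 7.54% of all 5820 tested genes (5.00% higher against 3.83%, and 0.714% lower against 3.71%). The share called was thus no larger among ZNF genes than among all genes. The median difference over the members was 0.06, beside 0.01 over all tested genes. All 8 went the same way at each of the 4 times. The count was 1 without the erlotinib 24 h array (0.714%, against 3.40% of all genes) and 3 without combination 12 h (2.14% against 3.37%). It was 4 without any 1 of erlotinib 12 or 48 h and combination 24 or 48 h (2.86% against 2.37% to 4.36%). Without quinacrine 24 h it was 5 (3.57% against 5.48%). The test was limma's, with factors for treatment and time over the 11 treated arrays, and Benjamini-Hochberg adjustment over all 5820 genes.

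ZNF692, a zinc finger factor also described as AREBP, was the member that fell. Its mean of 5.05 lay just inside the level of 5, which it met through its higher arrays without quinacrine. Its membership thus rests on the groups where it was high, and its fall is given as a description. Its erlotinib levels were -0.68, -0.99, -0.80 and -0.81 at 6, 12, 24 and 48 h, the quinacrine levels -2.27, -1.95 and -1.56 at 6, 12 and 24 h, the combination levels -1.86, -1.78, -1.84 and -1.32 at the 4 times, and the untreated level -1.21. No array with quinacrine overlapped the erlotinib arrays, and the untreated array lay between both sets. The combination was 1.84-fold lower than erlotinib (log2 -0.88, SE 0.15, adjusted p = 0.0104), and quinacrine alone was 2.06-fold lower (-1.04, SE 0.17, adjusted p = 0.0133). The first of these calls was kept in 22 of 24 alternative settings. These settings hold repeats, here and for the genes below. The untreated array is not part of this fit, and leaving out either 48 h array or both gives the same fit. Without the erlotinib 12 h and combination 6 h arrays its adjusted p was 0.0445, and that of quinacrine alone 0.0352.

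Of the 4 largest rises, 3 lay in the 24-member neighbourhood (ZNF83, ZNF611 and ZNF468). ZNF83 was at -0.52, -1.16, -0.77 and -0.43 in erlotinib from 6 to 48 h, at -0.46, 0.05 and 0.40 in quinacrine, at 0.01, 0.01, 0.02 and 0.25 in the combination, and at -0.35 untreated. Every combination array was above every erlotinib array, while quinacrine at 6 h was within the erlotinib levels. The combination was 1.73-fold higher (0.79, SE 0.18, adjusted p = 0.0261). Leaving out the combination 6 h array gave an adjusted p of 0.0581, and leaving out both the erlotinib 12 h and combination 6 h arrays 0.130. Of the 11 treated arrays 7 ended the call when left out: erlotinib 12, 24 and 48 h and each of the 4 combination arrays. Here and in the other comparisons of treatments, leaving out erlotinib 48 h or combination 48 h is 1 and the same fit, not separate tests.

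ZNF611 was at 0.38, 0.04, 0.02 and 0.10 in erlotinib, at 0.77, 0.53 and 0.90 in quinacrine, at 0.73, 0.95, 0.75 and 0.76 in the combination, and at 0.35 untreated. All 7 arrays with quinacrine lay above all 5 without it. The combination was 1.58-fold higher than erlotinib (0.66, SE 0.12, adjusted p = 0.0141), and the adjusted p was 0.0354 without the erlotinib 12 h and combination 6 h arrays. ZNF468, the third gene with an alike window shown above, was at 2.20, 2.31, 2.05 and 2.30 in erlotinib, at 2.40, 2.74 and 2.67 in quinacrine, at 2.70, 2.77, 2.61 and 3.00 in the combination, and at 2.46 untreated. Here too the combination and erlotinib arrays did not overlap (0.56, SE 0.10, adjusted p = 0.0138), and without those arrays the adjusted p was 0.0506, past the threshold no longer. Leaving out erlotinib 24 h ended the calls of ZNF611 and ZNF468, combination 12 h also that of ZNF611, and combination 24 h also that of ZNF468.

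The other rises lay outside that neighbourhood, apart from ZNF331. ZNF462, a large zinc finger protein without a KRAB domain that acts in development, was at -0.34, -0.41, -0.53 and -0.30 in erlotinib and at 0.26, -0.02, 0.02 and 0.53 in the combination (0.59, SE 0.11, adjusted p = 0.0154). ZNF8 was at -0.30, -0.58, -0.25 and -0.47 in erlotinib and at 0.34, 0.16, 0.06 and -0.17 in the combination (0.50, SE 0.12, adjusted p = 0.0379). The imprinted KRAB gene ZNF331, at the end of the 24-member neighbourhood, was at -1.31, -1.65, -1.58 and -1.57 in erlotinib and at -0.87, -1.09, -1.29 and -1.15 in the combination (0.43, SE 0.11, adjusted p = 0.0480). The mean of ZNF331 was 5.235, and its erlotinib arrays alone would not have met the level of 5. Its membership thus rests on the arrays where it was high. In each of these 3 genes the lowest combination array was above the highest erlotinib array. The seventh rise was ZNF93 (0.41, SE 0.11, adjusted p = 0.0491), a KRAB repressor of LINE-1 elements, which is named although only the 6 largest were to be. ZNF331 and ZNF93 kept their calls in 6 of 24 and 6 of 25 alternative settings, and ZNF8 in 10 of 25. Leaving out any 1 erlotinib or combination array, or that of quinacrine 24 h, ended each of these 3 calls; for ZNF331 and ZNF93 leaving out quinacrine 12 h did so too. The call of ZNF462 was ended by leaving out erlotinib 24 h, erlotinib 48 h or combination 48 h. Leaving out both the erlotinib 12 h and combination 6 h arrays ended all 4 calls, at adjusted p of 0.0513 for ZNF462, 0.147 for ZNF8, 0.203 for ZNF331 and 0.148 for ZNF93. Among the 8 members only ZNF611 and ZNF692 kept their calls there.

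**Figure D3:**
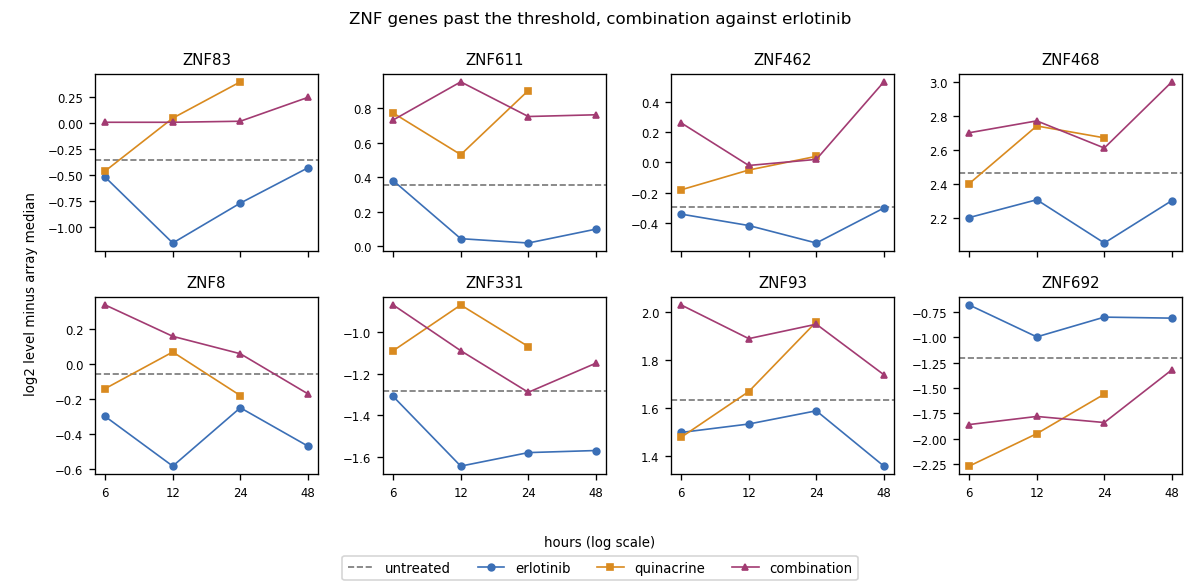
Log2 level minus the array median (y axis) against hours of treatment on a log scale (x axis) for the 8 ZNF genes past the threshold between combination and erlotinib, with 1 point per array, lines joining the arrays of a treatment and a dashed line at the untreated array. The 7 rises have every combination point above the erlotinib point of the same time, and ZNF692 has every one below.

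These rises depend on the scale. With no centring 2 members passed, 1 higher and 1 lower (ZNF462, adjusted p = 0.0486, and ZNF692, 0.0404), while ZNF611 had 0.0918 and ZNF83 0.0992. With centring on the median of all rows no member passed and 13 had an unadjusted p under 0.05 by limma (9.29%, against 13.6% of all tested genes). Over all genes these settings left 212 and 44 calls in place of 439. No named member changed its direction in any of the alternatives.

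The neighbourhood as a whole was mixed. Of its 24 members 16 were higher in the combination than in erlotinib, with a median of 0.19, and 4 passed the threshold (ZNF83, ZNF611, ZNF468 and ZNF331); over all tested genes 7.54% passed and 2982 of 5820 differences were positive. Of the 7 members with windows like that of ZNF611, 6 had positive differences and 2 passed, over a span of -0.22 to 0.79. ZNF808, whose window is 91.6% identical, differed by 0.05 (adjusted p = 0.896), with 0.71, 0.54, 0.44 and -0.10 in erlotinib and 0.89, 0.52, -0.01 and 0.38 in the combination. ZNF845 differed by 0.23 (adjusted p = 0.391) and ZNF761 by -0.22 (adjusted p = 0.312). The window most like that of ZNF611 thus belonged to a gene with one of the smaller differences. In the neighbourhood of 22 members 16 differences were positive and 1 passed (ZNF8), and in that of 16 members 11 were positive and 1 passed (ZNF93). Over the 90 members on chromosome 19 the median was 0.10 with 6 calls, all higher, and over the other 50 it was 0.03 with 2 calls. Genes of this family share long stretches of sequence, and whether each probe set read a single gene was not tested, so the values of ZNF83, ZNF611, ZNF468 and their neighbours are uncertain as values of single genes.

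**Figure D4:**
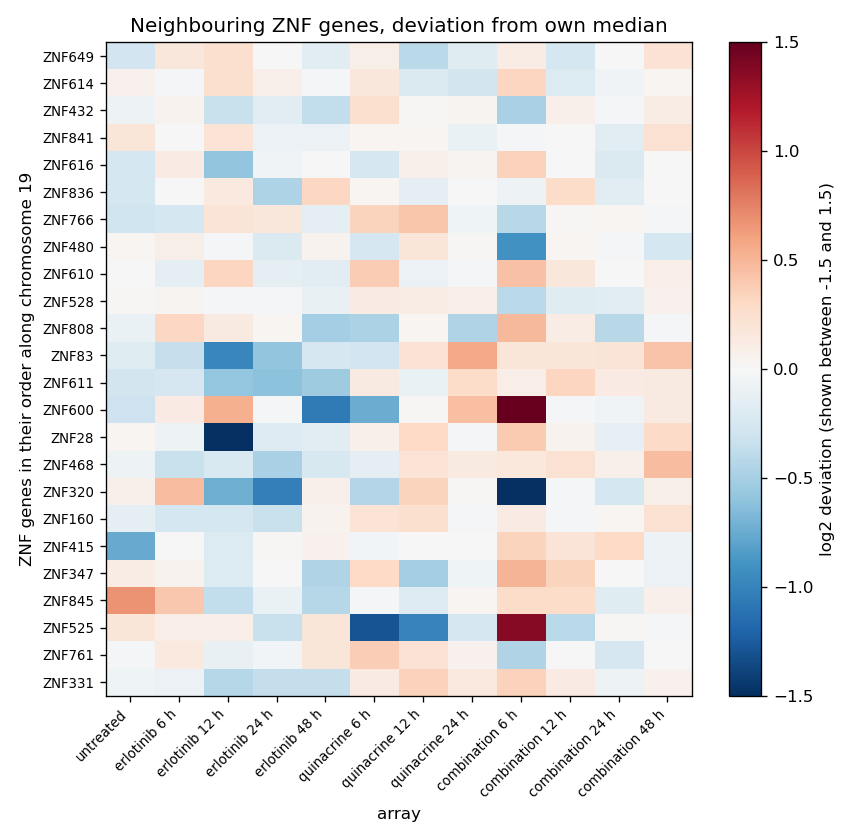
Deviation of the log2 level after centring from the gene's own median (colour, shown between -1.5 and 1.5) for 24 neighbouring ZNF genes on chromosome 19 (rows, in gene order) on the 12 arrays (columns). The rows of ZNF83, ZNF611 and ZNF468 turn from blue in erlotinib to red in the combination, while the darkest cells belong to single arrays of ZNF600, ZNF28, ZNF320 and ZNF525.

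Quinacrine alone was set against erlotinib over the 3 matched times. It gave 3 of 140 members (2.14%), against 5.03% of all tested genes: ZNF83 (0.79, SE 0.20, adjusted p = 0.0494) and ZNF611 (0.58, SE 0.14, adjusted p = 0.0423) were higher (1.43% of members against 2.56% of all genes) and ZNF692 was lower (0.714% against 2.47%), each at all 3 times. All 3 are also among the 8 above, and both comparisons share the erlotinib arrays. The other members of the 8 had 0.44 for ZNF468 (adjusted p = 0.0577), 0.50 for ZNF331 (0.0507), 0.40 for ZNF462 (0.100), 0.26 for ZNF8 (0.303) and 0.16 for ZNF93 (0.494). Without the combination 6 h array, which enters this fit through the time term and the variance, 10 members passed, 8 of them higher. That is 7.14% of members, against 8.18% of all tested genes. The count was 5 without erlotinib 6 h (3.57%, against 5.76% of all genes) and 2 without combination 12 h (1.43% against 2.97%). It was 1 without any 1 of erlotinib 12 or 24 h, quinacrine 6 or 24 h and combination 24 h (0.714% against 0.859% to 2.82%). Without quinacrine 12 h it was 0 (against 0.515%). With no centring none passed (1.13% of all tested genes did), and 15 had an unadjusted p under 0.05 by limma (10.7%, against 17.6%). Leaving out any 1 of erlotinib 12, 24 and 48 h, quinacrine 12 and 24 h, and combination 24 and 48 h ended the calls of both ZNF83 and ZNF611. Without both the erlotinib 12 h and combination 6 h arrays the adjusted p was 0.114 for ZNF83 and 0.0700 for ZNF611. Combination 12 h ended the call of ZNF83 as well, quinacrine 6 h for ZNF611, and quinacrine 6 or 12 h for ZNF692.

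The combination and quinacrine alone were not told apart. No member passed, nor did any of the 5820 tested genes (0%). At an unadjusted p under 0.05 by limma there were 12 members (8.57%) and 108 genes in all (1.86%). Without the quinacrine 6 h array these were 1 member (0.714%) and 26 genes (0.447%). Leaving out any 1 other array gave 8 to 17 members and 87 to 189 genes. The smallest p values belonged to ZNF525 (1.10, SE 0.38), ZNF91 (0.51, SE 0.18) and ZNF326 (0.38, SE 0.14) among those higher in the combination and to ZNF654 (-0.71, SE 0.22), ZNF761 (-0.45, SE 0.14) and ZNF12 (-0.41, SE 0.14) among those lower, all at an adjusted p of 0.999. The 95% interval of a member's difference reached a median of 0.35 to each side, and for 131 of 140 members the whole interval lay within 1 of 0. A difference of less than a doubling was therefore not shown to be absent.

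Against the untreated array no member passed with erlotinib (0% of all genes), quinacrine or the combination (0.103% of all genes in each), where 6, 18 and 17 members had an unadjusted p under 0.05 by limma, beside 174, 717 and 736 of all 5820 genes. The fit takes the spread of the single untreated array to be that of the treated ones, and the 95% interval of a member reached a median of 0.54, 0.55 and 0.54 to each side. ZNF415, a member of the 24-gene neighbourhood, came closest: it was at -1.60 untreated, between -1.05 and -0.79 in erlotinib, between -0.89 and -0.85 in quinacrine and between -0.93 and -0.52 in the combination. All 11 treated arrays were above the untreated one, with differences of 0.72 (adjusted p = 0.998), 0.74 (0.128) and 0.94 (0.0629). Without the combination 48 h array the last was 1.03 and passed, at an adjusted p of 0.0427 by limma. ZNF598, the ribosome quality-control ligase, was the reverse, at -0.48 untreated and between -1.31 and -0.85 on all treated arrays, with -0.62, -0.59 and -0.60 (adjusted p = 0.998, 0.267 and 0.234).

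Others with small p values were ZNF506, at -1.31 untreated and higher by 0.73 in quinacrine (adjusted p = 0.172) and by 0.72 in the combination (0.165), ZNF253 with quinacrine (0.77, adjusted p = 0.215), ZNF90 with the combination (0.80, adjusted p = 0.165) and ZNF254 with erlotinib (0.59, adjusted p = 0.998). Below the untreated array were ZNF727 (-1.18 with quinacrine, 0.278; -1.03 with the combination, 0.315), ZNF814 (-0.49 with erlotinib, 0.998; -0.45 with the combination, 0.269), ZNF845 with erlotinib (-0.79, 0.998) and ZNF692 with quinacrine (-0.72, 0.286). None of these passed in this fit. With array weights, a limma option that counts arrays of wider spread less, 6 of the genes named here passed for quinacrine: ZNF415 and ZNF506 (both at an adjusted p of 0.0114), ZNF727 (0.0240), ZNF253 (0.0379), ZNF598 (0.0388) and ZNF692 (0.0476). For the combination 4 passed with these weights: ZNF415 (0.00251), ZNF90 (0.00475), ZNF506 (0.00929) and ZNF814 (0.0365). With these weights 9.29% of all members passed for quinacrine, against 8.09% of all tested genes. For the combination 5.71% of members passed, against 12.0%. The 3 comparisons share the untreated array.

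Change over time was described by a slope per doubling of time, fitted for the 7 arrays with quinacrine (alone and combined) and separately for the 4 erlotinib arrays. With quinacrine 16 of 140 members passed, 12 rising and 4 falling, or 11.4% against 13.9% of all tested genes (8.57% rising against 6.19%, and 2.86% falling against 7.73%). The first array decides these calls: without the combination 6 h array no member passed. Of all genes 105 were then called in place of 810. At an unadjusted p under 0.05 by limma there were 28 members (20%) without this array, against 18.7% of all tested genes. The count of called members was 4 without combination 48 h (2.86%, against 5.88% of all genes) and 8 without quinacrine 24 h (5.71% against 5.76%). It was 9 without quinacrine 6 h (6.43% against 11.2%) and 10 without combination 24 h (7.14% against 7.06%). Of the 12 that rose, 10 had their lowest level with quinacrine on the combination 6 h array, and of the 4 that fell 3 had their highest there. On the uncentred values 20 members passed (14.3%, against 13.5% of all genes), all rising, as did 719 of 784 called genes. The median of all genes then rose by 0.08 per doubling in place of -0.03. Centred on the median of all rows 32 members passed (22.9%, against 19.9% of all genes), all rising, beside a median of 0.14.

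The steepest rise was that of ZNF768, which was at -2.25, -1.05, -0.50 and -0.06 in the combination from 6 to 48 h, at -1.04, -1.40 and -0.85 in quinacrine and at -0.98, -1.47, -1.35 and -1.41 in erlotinib (slope 0.54, SE 0.12, adjusted p = 0.0163). Its combination level increased at each step, while the quinacrine series had its lowest value at 12 h. ZNF266 was at -1.86, -0.25, -0.11 and -0.25 in the combination and at -0.94, -0.39 and -0.11 in quinacrine, so most of its slope was the step from 6 to 12 h (0.47, SE 0.11, adjusted p = 0.0246). ZNF346, which binds double-stranded RNA, was at -2.08, -1.08, -0.94 and -0.67 and at -1.58, -1.65 and -1.09 (0.38, SE 0.08, adjusted p = 0.0161). In ZNF543 (0.38, SE 0.09) and ZNF530 (0.33, SE 0.09) the combination 6 h values of -1.82 and -2.09 lay below the 48 h values of -0.53 and -0.76. ZNF592, a partner of the chromatin reader ZMYND8, was at -0.90, 0.05, 0.18 and 0.20 in the combination and at -0.42, -0.13 and 0.11 in quinacrine (0.32, SE 0.07, adjusted p = 0.0213).

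ZNF274, a KRAB protein that brings SETDB1 to the 3′ ends of other zinc finger genes, was at -0.12, 0.50, 0.52 and 0.64 in the combination and at 0.13, 0.30 and 0.68 in quinacrine (0.24, SE 0.07, adjusted p = 0.0443). In erlotinib it was at 0.46, -0.12, 0.21 and 0.23, and 0.45 untreated. The other rising members were ZNF787, ZNF282, ZNF318, ZNF692 and ZNF114, with slopes of 0.20 to 0.30; in erlotinib ZNF114 was at 3.12, 3.29, 3.38 and 3.43 (0.10 per doubling, adjusted p = 0.533). ZNF692 thus stood below its erlotinib level at every time with quinacrine. With quinacrine alone it moved toward that level, from -2.27 at 6 h to -1.56 at 24 h. In the combination it stayed between -1.86 and -1.78 from 6 to 24 h and was at -1.32 at 48 h. Its slope call was kept in 8 of 24 alternative settings.

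Among the members that fell over time with quinacrine was ZNF217, a Krüppel-like factor amplified in carcinomas that works with the CtBP and CoREST corepressors. It was at 0.24, -0.11, -0.23 and -0.42 in the combination, at 0.10, -0.20 and -0.31 in quinacrine and at -0.39, -0.23, -0.18 and -0.06 in erlotinib (slope with quinacrine -0.21, SE 0.04, adjusted p = 0.0132). The quinacrine and combination series both declined at every step and the erlotinib series went up at every step. The slope in erlotinib was 0.10 (SE 0.05, adjusted p = 0.471), and the difference of the slopes was -0.31 (SE 0.07, adjusted p = 0.0728), short of the threshold. ZNF532, which like ZNF592 binds ZMYND8, was at 1.76, 1.52, 1.35 and 1.17 in the combination and at 1.53, 1.52 and 1.29 in quinacrine (-0.17, SE 0.04, adjusted p = 0.0265). ZNF367 (-0.27, SE 0.07, adjusted p = 0.0257) and ZNF394 (-0.19, SE 0.05, adjusted p = 0.0279) were the others. Without the combination 6 h array the adjusted p was 0.121 for ZNF217 and 0.0898 for ZNF367.

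**Figure D5:**
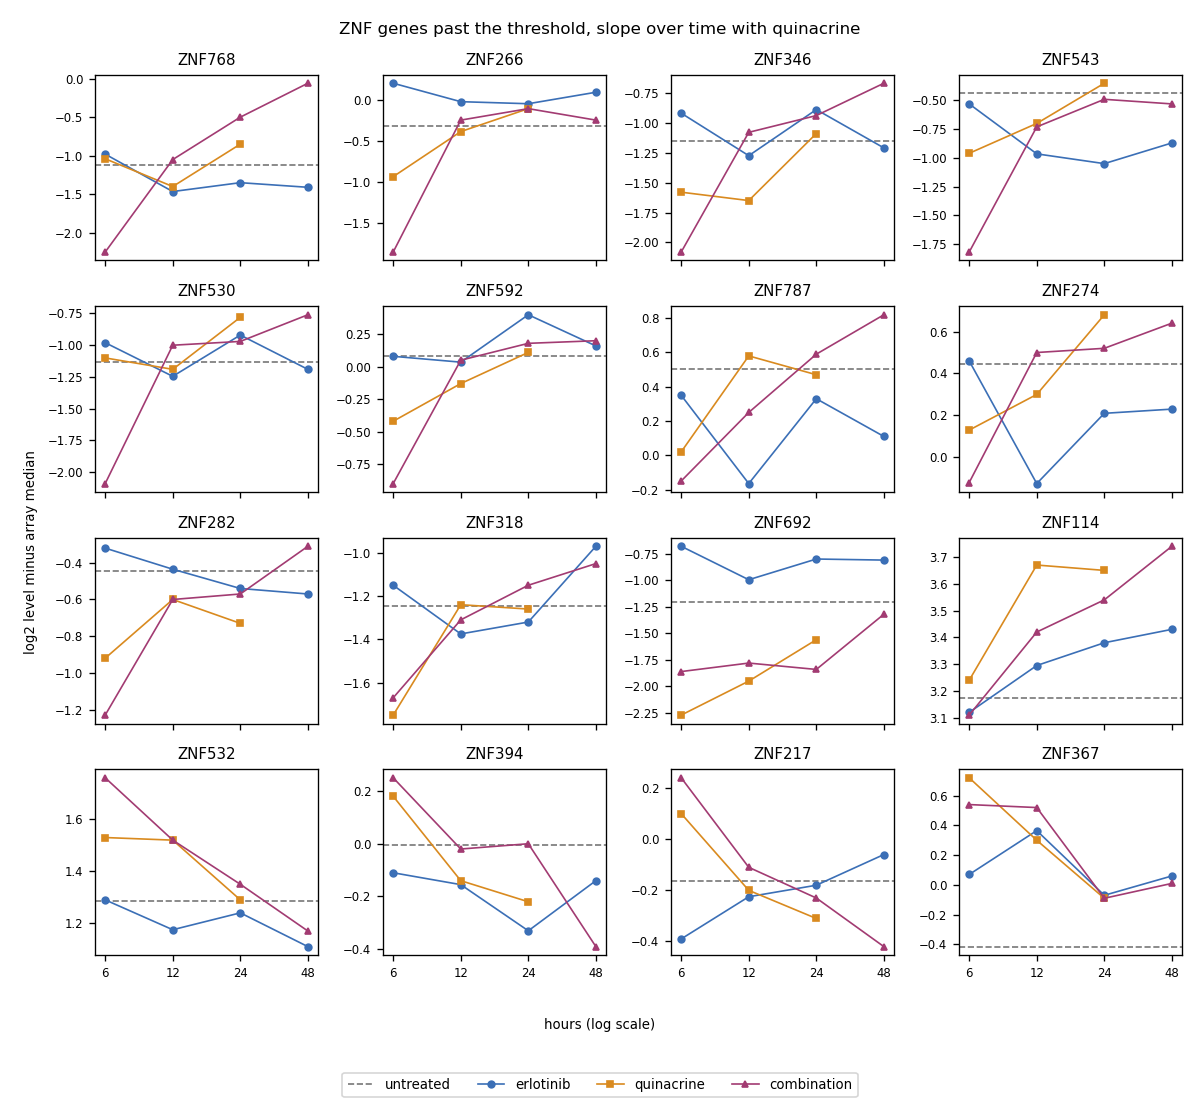
Log2 level minus the array median (y axis) against hours on a log scale (x axis) for the 16 ZNF genes past the threshold for a slope over time with quinacrine, ordered from the steepest rise (ZNF768, 0.54 per doubling) to the steepest fall (ZNF367, -0.27). Points are arrays, lines join a treatment and the dashed line is the untreated array; for most rising genes the combination point at 6 h is the lowest.

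With erlotinib alone no member passed for a slope (0.155% of all tested genes did), and 7 had an unadjusted p under 0.05 by limma (5.00%, against 11.1%). The smallest p values belonged to ZNF655 (-0.26, SE 0.09, adjusted p = 0.289), ZNF185 (-0.22, SE 0.08, adjusted p = 0.309), ZNF726 (-0.26, SE 0.09, adjusted p = 0.318) and ZNF524 (0.21, SE 0.08, adjusted p = 0.386). The actin-associated ZNF185 was at 1.32, 1.55, 1.07 and 0.76 in erlotinib and at 1.53 untreated. The difference between the slopes passed for no member either (0.206% of all genes). At an unadjusted p under 0.05 by limma there were 15 members (10.7%, against 16.9% of all tested genes). After ZNF217 came ZNF543 (0.49, SE 0.13, adjusted p = 0.135), ZNF768 (0.65, SE 0.18, adjusted p = 0.135) and ZNF562 (0.37, SE 0.11, adjusted p = 0.135). Without the quinacrine 6 h array ZNF768 passed, at 0.81 (adjusted p = 0.0462). The lower end of that order held ZNF394 (-0.17, SE 0.08) and ZNF622 (-0.17, SE 0.08), both at an adjusted p of 0.293.

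Some members known for roles of their own gave no call in any comparison. ZNF281, a factor of stem-cell and EMT programmes, was between -0.45 and 0.19 on all arrays. ZNF146, a protein of zinc fingers only, was at -0.81 to -0.47 in quinacrine and at -0.39 to -0.06 in erlotinib. ZNF91, a KRAB repressor of SVA elements, was at -1.94 on the quinacrine 6 h array and between -1.57 and -0.81 on the others. ZNF638 and ZNF148 were among the steadiest genes above.

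The corepressors that KRAB proteins use had a narrower range in the median, and higher levels. Of 24 listed genes 21 were tested, with a median range of 0.53, and the median level of the list was 6.77 beside 5.91 for the members. DNMT3B, a DNA methyltransferase, ranged over 2.40, with -3.27 on the combination 6 h array and -1.68 to -0.87 on the others. TRIM28 had deposited levels of 10.42 to 10.69, and its combination minus erlotinib difference was 0.00 (SE 0.11, adjusted p = 0.986). SETDB1 was at -1.55 after centring on the quinacrine 6 h array, at -0.86 on the combination 6 h array and between -0.76 and -0.36 on the others, with -0.35 for quinacrine minus erlotinib (SE 0.17, adjusted p = 0.274). No gene of the list passed in any comparison of treatments. For the slope with quinacrine 2 of 21 fell (9.52% called, against 13.9% of all tested genes), the remodeller CHD4 (-0.22, SE 0.05, adjusted p = 0.0148) and UHRF1, a reader of hemimethylated DNA (-0.19, SE 0.04, adjusted p = 0.0176).

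Genes of known short-lived transcripts ranged about as widely as the ZNF genes, with a median of 1.02 over 23 tested of 31 listed, and stable ribosomal protein transcripts less, with 0.46 over 30 tested of 50. Without the erlotinib 12 h and combination 6 h arrays the first median stayed at 1.02 while that of the ZNF genes was 0.71. Of the 23 short-lived regulators 6 (26.1%, against 7.54% of all tested genes) passed between combination and erlotinib, all higher: TNFAIP3 (1.69), PPP1R15A (1.06), KLF10 (0.84), EGR1 (0.79), DUSP1 (0.68) and JUNB (0.61). Their median difference was 0.36, beside 0.06 for the ZNF genes and 0.01 for all tested genes. Of 10 tested subunits of RNA polymerase II, 1 passed (10.0%), POLR2I, which was lower in that comparison (-0.62, SE 0.12, adjusted p = 0.0153), and 1 rose and 3 fell over time with quinacrine (4 of 10, against 13.9% of all tested genes), among the latter POLR2A (-0.20, SE 0.04, adjusted p = 0.0149).

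Other zinc finger families were tested in small numbers. Of the ZBTB genes 15 of 41 were tested, with a median range of 0.81, and ZBTB11 was higher in the combination (0.59, SE 0.09, adjusted p = 0.00669) and in quinacrine (0.62, SE 0.10, adjusted p = 0.0134) than in erlotinib, while ZBTB38 was lower in quinacrine (-0.49, SE 0.12, adjusted p = 0.0423). ZBTB11 (-0.19 per doubling, adjusted p = 0.0294) and ZBTB7A (-0.22, adjusted p = 0.0354) fell over time with quinacrine. Of the KLF genes 9 of 17 were tested (0.89), and KLF10 was the one higher in both. Of the ZFP genes 5 of 20 were tested (0.93), and ZFP90 rose over time with quinacrine (0.24, SE 0.06, adjusted p = 0.0236). Of the ZKSCAN and ZSCAN genes 1 of 7 and 2 of 21 were tested, and none passed in any comparison.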

How the data were processed

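Per the labels' protocols, NCI-H1975 cells grown in DMEM with 5% serum were treated, RNA was extracted with RNeasy columns and labelled with biotin. Per the submitters' processing notes, the authors used Affymetrix Expression Console 1.30 and RMA, so the deposited values are log2 expression levels; the table has 2 decimals and 53617 rows. Symbols came from the platform annotation: 23871 rows had 1 symbol, 1842 several (not named) and 27904 none. All columns were matched to samples. From these log2 values each array's median over 5820 genes (mean of at least 5) was subtracted. limma 3.58.1 in R 4.3.3 (lmFit, eBayes) fitted treatment and time factors over 11 treated arrays, group means over all 12, and slopes on log2 hours; adjustment was over the 5820 genes, and intervals are 95%. In the fit of factors the residual is the departure from additivity. In the fit of group means it is the spread of a treatment over its times, and in the slope fit the departure from the line. None of these is replicate error. The fits were tried on simulated arrays with independent noise. Those arrays held no array-wide shift, so they do not bear on the combination 6 h array. The number of arrays sets the precision.

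The members and lists were chosen with earlier results of these data known. The rule for named genes took, per comparison, up to 6 called rises and 6 called falls that went one way at all matched times (3 smallest p values each way where none was called), the 6 highest means, the 6 widest and 3 narrowest ranges, 3 genes on each side of the level, a few well-known ZNF genes, and called list genes; other called members are named too. Promoter windows were aligned with Biopython 1.88 (Python 3.11.15). A grouping of members by protein class was not made here.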

Additional observations from a re-analysis of the deposited data

Results flagged for a closer look

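Within the erlotinib and the combination series of 4 arrays, an array was singled out for a named member where its gap to the nearest other array took more of the range than Dixon's critical value at the 95% level allows. Chance gives about 1 in 20 such series, and over the 140 members 6 (4.29%) were singled out with erlotinib and 19 (13.6%) with the combination, against 5.46% and 7.55% of other tested genes. Values are log2 levels minus the array median.

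On the combination 6 h array ZNF266 was at -1.86 (others -0.25 to -0.11), ZNF592 at -0.90 (0.05 to 0.20), ZNF654 at -2.13 (-1.25 to -1.11) and ZNF71 at -2.61 (-0.58 to -0.31), all low, whereas ZNF600 was high at 0.52 (-1.41 to -1.22). This array was the low one for 10 members in all (7.14%, against 2.39% of other genes) and the high one for 1 (0.714%, against 3.33%). Its median over the tested genes and its interquartile range over all rows, 6.18 and 2.04, were the lowest of the 12, and their part in these values was not tested.

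On the combination 12 h array ZNF611 was at 0.95 (others 0.73 to 0.76), on the 24 h array ZNF121 at 2.20 (2.32 to 2.33), and on the 48 h array ZNF83 at 0.25 (0.01 to 0.02) and ZNF692 at -1.32 (-1.86 to -1.78). In erlotinib ZNF28 at 12 h was at -2.90 (others -0.92 to -0.80), ZNF100 at 12 h at 2.46 (2.03 to 2.10) and ZNF525 at 24 h at -0.81 (-0.38 to -0.30). The values of ZNF121, ZNF611, ZNF83 and ZNF100 differ from the rest of their series by less than 0.5.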

How the results depend on the processing

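The calls follow the scale and single arrays. Members called for combination minus erlotinib (8) numbered 2 with no centring, 0 with the median of all rows, 3 with no filter, 4 up to 24 h, 5 without the erlotinib 12 h and combination 6 h arrays (added after seeing the data) and 1 to 9 leaving out 1 array. In that order these are 1.43%, 0%, 0.693%, 2.86%, 3.57% and 0.714% to 6.43% of members. Of all tested genes 3.64%, 0.756%, 0.603%, 4.35%, 5.29% and 2.37% to 8.04% were called. For quinacrine minus erlotinib (3) they numbered 0 with no centring, with the median of all rows and with no filter, 1 with cyclic loess, 5 with the untreated level as filter and with a trended robust prior, 9 with array weights and 0 to 10 leaving out 1 array. From cyclic loess on these are 0.714%, 3.62%, 3.57%, 6.43% and 0% to 7.14% of members. Of all tested genes 1.13%, 0.326%, 0.246%, 5.46%, 5.16%, 5.91%, 10.2% and 0.515% to 8.18% were called. For the slope with quinacrine (16) they numbered 32 with the median of all rows, 9 with a mean of at least 6, 3 with no filter, 2 up to 24 h, 1 on hours, 0 without the 2 arrays and 0 to 20 leaving out 1. In that order these are 22.9%, 14.3%, 0.693%, 1.43%, 0.714%, 0% and 0% to 14.3% of members. Of all tested genes 19.9%, 14.8%, 1.35%, 5.19%, 5.14%, 2.22% and 1.80% to 15.0% were called. Against untreated, 1 passed with a mean of at least 4 and 13 with array weights for quinacrine. These are 0.455% and 9.29% of members, against 0.17% and 8.09% of all tested genes. For the combination 1, 8 and 1 passed with these and up to 24 h (0 to 1 leaving out 1). These are 0.455%, 5.71% and 0.714% of members, against 0.140%, 12.0% and 0.103%. For the difference of slopes 1 passed with a mean of at least 6, or 1.59% against 1.41% (0 to 1 leaving out 1). The median range of 0.91 was 1.02 with no centring or no filter, 1.15 with the median of all rows, 0.84, 0.96 and 0.93 with means of at least 6, of at least 4 and the untreated filter, 0.88 with all rows of a gene, 0.83 up to 24 h, 0.71 without the 2 arrays and 0.78 to 0.91 leaving out 1. The span of the members' median over arrays, 0.11, was 0.44 with no centring, 0.65 with the median of all rows, 0.21 with a mean of at least 6, 0.0775 up to 24 h and 0.07 to 0.12 leaving out 1. The filters tested 3746 genes at a mean of at least 6, 7855 at 4, 5837 with the untreated filter and 22395 with none. Fewer arrays enter the left-out fits. Otherwise the cause was not tested. No named member reversed. No paired analysis was possible because the labels number no replicates. Arrays of one time were matched by the time term. Without that term 7 members passed for combination minus erlotinib (5.00%, against 6.37% of all tested genes). For quinacrine minus erlotinib 4 passed (2.86% against 4.52%).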
